A study of Mus musculus with 8 samples.

Results

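Inflammasomes are protein platforms that turn sensed damage or infection into pore-forming cell death and cytokine release. Sensors such as Nlrp3 and Aim2 recruit the adaptor Pycard (ASC), which gathers and activates caspase-1. Caspase-1 matures interleukin-18 and cuts gasdermin D, whose freed end forms pores in the plasma membrane. Mouse Casp4 encodes the caspase long called caspase-11, which binds bacterial lipopolysaccharide in the cytosol and cuts gasdermin D without a sensor platform. Gsdma and Gsdmc are relatives of Gsdmd that epithelia express, and keratinocytes are known to make Pycard and pro-interleukin-18 at rest. Tnfaip3 encodes A20, which edits ubiquitin chains, brakes NF-kB signalling and is known to restrain Nlrp3 inflammasome activity in myeloid cells.

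The 9 genes described here are Casp1, Casp4, Pycard, Nlrp3, Aim2, Gsdmd, Gsdma, Gsdmc and Il18, a named list matched by symbol among the 51912 gene identifiers of the count files. Each of the 9 was found and each passed the filter on low counts, which left 16512 genes for testing. Bulk RNA was sequenced from ear epidermal sheets of 8 mice, 4 A20KIKO and 4 A20WT, each library from its own animal. Both groups were homozygous for a conditional (F/F) A20 allele, were 8 weeks old, received 1 mg of tamoxifen by intraperitoneal injection on each of 2 days and were killed 7 days after the first dose. A20KIKO mice also carried Krt5-CreERT2, a tamoxifen-inducible Cre under the promoter of a basal keratinocyte keratin, and A20WT mice did not. Cre presence and loss of A20 therefore cannot be told apart in this comparison, and cells that never used the Krt5 promoter kept their alleles. In bulk sheets, fewer cells of a type and less RNA per cell cannot be told apart.

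Libraries held 40451075 to 89624373 counts. Normalised counts are given as CPM, scaled to library size with edgeR's TMM factors. Tnfaip3 had 13.5, 19.6, 17.7 and 15.4 CPM in A20WT mice 1 to 4 and 90.9, 55, 63.97 and 86.2 CPM in A20KIKO mice 1 to 4. Its count was thus higher in the libraries labelled A20KIKO (log2 change 2.16, edgeR adjusted p = 8.36e-05), the group named for loss of A20. The count covers the whole gene, and which exons were deleted is not known here. A count outside the deleted exons checks nothing about the deletion, so the labels cannot be checked from it. The sheets carried epidermal markers in every library: Krt14 lay at 14269 to 25733 CPM and Krt10 at 13704 to 25216 CPM. The 9 keratinocyte markers summed to 52304 to 72490 CPM in A20WT and 47771 to 61925 CPM in A20KIKO libraries, and of them Krt5 fell and 8 did not pass the test. The summed level of 12 monocyte and macrophage markers was 331 to 434 CPM in A20WT and 576 to 666 CPM in A20KIKO, without overlap. Of the 10 tested markers of this list 4 rose and 0 fell, against 2.43% and 1.06% of all tested genes. Of the 4, Ly6c2 passed the filter on low counts only with A20KIKO libraries, with 3 A20WT and 4 A20KIKO libraries over 0.133 CPM. No marker of that list was at 0 in each of the 8 libraries. The 9 neutrophil markers summed to 5.57 to 38.5 CPM in A20WT and 23.1 to 61.0 CPM in A20KIKO mice 1 to 3. In A20KIKO mouse 4 they summed to 2931 CPM, most of it S100a9 and S100a8, at 1899 and 947 CPM. Ly6g had 1.61 CPM there and 0 in each other library. Elane, a gene of immature neutrophils, was at 0 in each library. None of the Langerhans and dendritic cell, epidermal T cell, fibroblast and shared leukocyte markers passed. Their sums in A20WT and A20KIKO were 1606 to 1932 and 1836 to 2023 CPM, 128 to 157 and 132 to 141 CPM, 39.7 to 55.3 and 15.1 to 36.7 CPM, and 158 to 237 and 213 to 332 CPM in that order. Called means an adjusted p under 0.05 in edgeR's two-sided quasi-likelihood test with Benjamini-Hochberg adjustment over the 16512 genes.

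Of the 9 genes, 2 rose in A20KIKO epidermis, Gsdmd and Casp4, 0 fell and 7 did not pass the test. Among all tested genes 3.49% were called, 2.43% higher and 1.06% lower. The median log2 change (A20KIKO minus A20WT) of the 9 was 0.87, the value of Aim2, against -0.01 over all tested genes. Aim2 itself did not pass. Nlrp3 passed the filter on low counts only with A20KIKO libraries, with 2 A20WT and 4 A20KIKO libraries over 0.133 CPM. The median of the 9 counts Nlrp3 too and is therefore no support for a shift of the 9 genes. Gsdmd and Casp4 were also the members whose groups did not overlap, a pattern that 5.78% of tested genes showed in that direction, and 0 members lay apart in the other direction, against 4.79% of tested genes. Before adjustment the 95% intervals of Nlrp3, Gsdma and Il18 left out 0 too, but these genes failed the adjustment over all genes. Of the 16512 tested genes, 2543 had an unadjusted p under 0.05 in the same edgeR test.

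**Figure D1:**
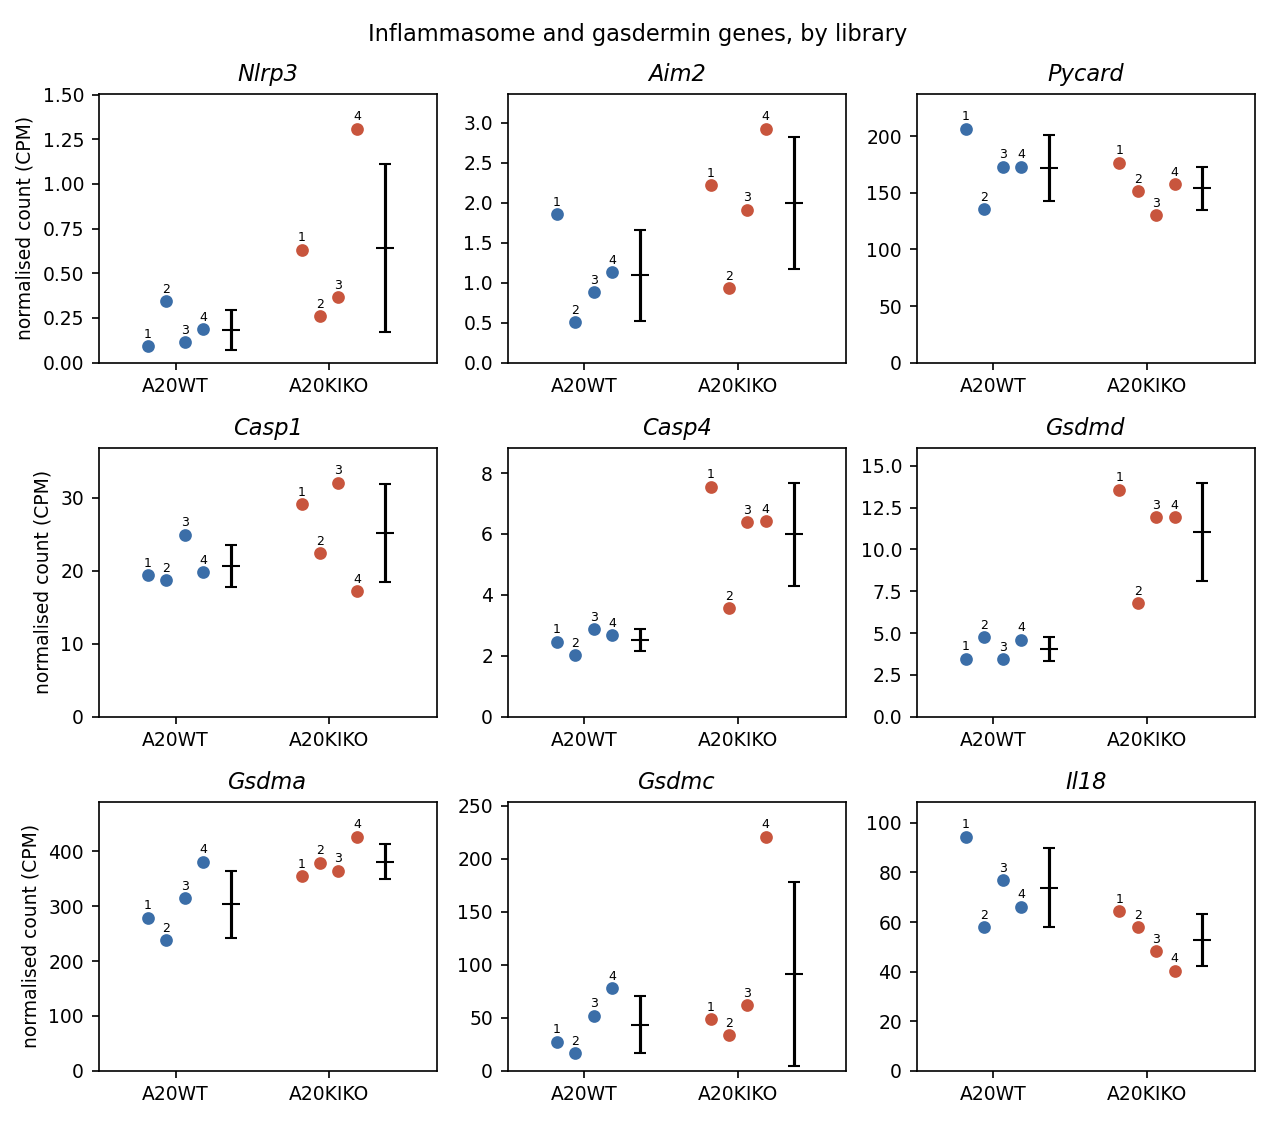
Normalised count (CPM, linear axis from 0) of each of the 9 genes in every library. Points are libraries numbered by mouse, and the black mark and bar beside each group are its mean and SD (n = 4). For Gsdmd and Casp4 every A20KIKO point lies above every A20WT point, and for Gsdmc the A20KIKO mean is carried by mouse 4 at 221 CPM.

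The sensors were the members with the fewest counts. Nlrp3 (ENSMUSG00000032691, chromosome 11, 59541568 to 59566956 in GRCm38) detects ion flux and membrane damage. It had 8, 19, 10 and 12 counts in A20WT mice 1 to 4 and 54, 15, 15 and 115 counts in A20KIKO mice 1 to 4, which is 0.0922, 0.342, 0.116 and 0.186 against 0.631, 0.260, 0.368 and 1.31 CPM. A20KIKO mice 1 and 4 were high, while mouse 2 lay below A20WT mouse 2, so the groups overlapped. Its log2 change was 1.85 (SE 0.59, 95% interval 0.55 to 3.14, edgeR adjusted p = 0.133), and 1.23 without A20KIKO mouse 4. It reached the filter's 0.133 CPM in 4 A20KIKO but only 2 A20WT libraries, so it was tested on the strength of the group in which it was higher. Aim2 (ENSMUSG00000037860, chromosome 1, 173350879 to 173466040), a sensor of cytosolic DNA, had 1.86, 0.505, 0.881 and 1.13 CPM in A20WT and 2.22, 0.935, 1.91 and 2.93 CPM in A20KIKO mice. A20WT mice 1 and 4 lay inside the A20KIKO range, and the log2 change of 0.87 (SE 0.42, 95% interval -0.04 to 1.77) did not pass (edgeR adjusted p = 0.351).

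Pycard and Casp1, the adaptor and the caspase of the canonical platform, were well expressed and neither passed the test. Pycard (ENSMUSG00000030793, chromosome 7, 127989708 to 127993867) had 207, 136, 173 and 173 CPM in A20WT and 177, 151, 130 and 158 CPM in A20KIKO mice, and the groups overlapped through their whole middle. Its log2 change was -0.16 (SE 0.14, edgeR adjusted p = 0.662), and the 95% interval ran from 0.725-fold to 1.10-fold. Pycard exons overlap 485 bases of Gm45205 on the other strand, and these libraries keep no strand. Casp1 (ENSMUSG00000025888, chromosome 9, 5298517 to 5307265) had 19.3, 18.7, 24.9 and 19.8 CPM in A20WT and 29.1, 22.4, 32.1 and 17.2 CPM in A20KIKO mice. A20KIKO mice 1 and 3 were the highest of the 8 and A20KIKO mouse 4 the lowest. The interval of its change was 0.919-fold to 1.61-fold (log2 change 0.28, SE 0.19, edgeR adjusted p = 0.534).

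Casp4, next to Casp1 on chromosome 9, rose 2.38-fold. Casp4 (ENSMUSG00000033538, 5308828 to 5336783) had 2.47, 2.02, 2.86 and 2.69 CPM in A20WT and 7.55, 3.57, 6.40 and 6.42 CPM in A20KIKO mice, and its change was 1.25 on the log2 scale (SE 0.24, edgeR adjusted p = 0.0119). Mouse 2 was the lowest A20KIKO library and still lay above each A20WT library. Without A20KIKO mouse 1 the adjusted p was 0.0507 at a log2 change of 1.12, and without A20KIKO mouse 4 the log2 change was 1.22. Set against its neighbour within each library, Casp4 had 121 ± 12.3 counts per 1000 Casp1 counts in A20WT and 248 ± 93.4 in A20KIKO mice (SD, n = 4 each), higher in 4 of 4. The log2 ratio differed by 0.96 (two-sided exact permutation test, p = 0.0286, the smallest that 4 against 4 allows, and 0.0429 adjusted over 3 ratios). This ratio and the other 2 below were chosen after the values were seen, and the adjustment does not cover that choice. Casp4 alone already lay apart between the groups, so the p of this ratio is no separate support.

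Gsdmd, the executioner that both caspases cut, rose 2.72-fold. Gsdmd (ENSMUSG00000022575, chromosome 15, 75862327 to 75867408) had 3.46, 4.76, 3.43 and 4.60 CPM in A20WT and 13.6, 6.77, 11.9 and 11.9 CPM in A20KIKO mice, a difference of 1.45 on the log2 scale (SE 0.22, 95% interval 0.96 to 1.93, edgeR adjusted p = 0.00313). Each A20KIKO library exceeded each A20WT library, with mouse 2 again the lowest of its group. The call held without any single library, at log2 changes of 1.33 to 1.62 and adjusted p of 0.000598 to 0.0173, and it was also past the test against a 1.5-fold change (0.0281). The monocyte and macrophage sum was higher in A20KIKO, like Casp4 and Gsdmd, and was lowest among A20KIKO libraries in mouse 2 as well, at 576 CPM. The part of those cells in either rise was not tested.

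Gsdma and Gsdmc are the gasdermins that made up most of the family's RNA in these sheets, and neither passed. Gsdma (ENSMUSG00000017204, chromosome 11, 98664351 to 98677708), which in human skin is cut by a streptococcal protease, had 279, 238, 315 and 381 CPM in A20WT and 355, 380, 365 and 427 CPM in A20KIKO mice. A20WT mouse 4 lay inside the A20KIKO range, and the interval of the change ran from 1.01-fold to 1.56-fold (log2 change 0.33, SE 0.14, edgeR adjusted p = 0.295). Gsdmc (ENSMUSG00000079025, chromosome 15, 63775968 to 63808759), an epithelial gasdermin whose human form is cut by caspase-8, had 27.4, 16.8, 52.0 and 77.9 CPM in A20WT and 48.9, 33.7, 61.8 and 221 CPM in A20KIKO mice. One library, A20KIKO mouse 4, set the mean: the log2 change of 1.07 (SE 0.77, edgeR adjusted p = 0.604) was 0.14 without it. That library also held the high neutrophil sum, most of it S100a8 and S100a9. It stood apart for 2 genes of differentiating keratinocytes, named after their values were seen. Krt1 had 7996 CPM there, 1537 to 2266 CPM in A20KIKO mice 1 to 3 and 1353 to 3791 CPM in A20WT mice. Casp14 had 507 CPM against 142 to 212 CPM in A20KIKO mice 1 to 3. Other differentiation markers did not stand apart there. Krt10, Lor and Ivl, at 18631, 5282 and 222 CPM, each lay inside the range of A20KIKO mice 1 to 3. A20WT mouse 4 was the highest A20WT library for both Krt1 and Gsdmc. The part of these cells in the Gsdmc level was not tested.

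Mouse has several copies of these genes, and Gsdma3, a skin gasdermin whose mutations cause hair loss in mice, was the copy that rose. Gsdma3 (chromosome 11, 98626360 to 98638226) had 1.61, 1.78, 2.13 and 2.08 CPM in A20WT and 4.03, 3.03, 4.34 and 5.19 CPM in A20KIKO mice, 2.18-fold higher (log2 change 1.12, SE 0.22, edgeR adjusted p = 0.0138), with no overlap, but it did not pass against a 1.5-fold change (edgeR adjusted p = 0.176). Gsdma2 had 1.21 ± 0.283 and 1.61 ± 0.493 CPM in A20WT and A20KIKO mice, Gsdmc2 2.19 ± 1.11 and 1.25 ± 1.55 CPM (SD, n = 4 each), and neither passed (edgeR adjusted p = 0.580 and 0.793). Gsdmc3 and Gsdmc4 held 0 to 32 and 0 to 11 counts per library and were not tested, like the distant relative Pjvk. Gsdme, the gasdermin that caspase-3 cuts, had 8.79 ± 1.72 and 7.35 ± 1.83 CPM (SD, n = 4 each; edgeR adjusted p = 0.636). Of the 50-base stretches in Gsdmd transcripts 0% occur in transcripts of another gene, against 8.26% for Gsdma, 5.71% for Gsdma3, 16.1% for Gsdmc and 51.3% for Gsdmc2. How reads shared among the Gsdma or the Gsdmc copies were counted is not stated in the labels, and values of single copies are uncertain.

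Per kilobase of exon, the A20WT order of levels was Gsdma (111 ± 22.2 CPM per kilobase), Il18 (71.6 ± 15.4), Pycard (45.3 ± 7.64), Gsdmc (18.1 ± 11.3), Casp1 (13.8 ± 1.92), Gsdmd (1.71 ± 0.300), Casp4 (0.676 ± 0.0985), Aim2 (0.312 ± 0.163) and Nlrp3 (0.0454 ± 0.0278; SD, n = 4 each). In that order the ranges of Gsdma and Il18 overlapped, as did those of Gsdmc and Casp1, and the other neighbours were apart. The length used was every annotated exon base of a gene, 3800 for Pycard and 1031 for Il18. It can exceed the length of the transcripts made, so places in this order, that of Pycard among them, depend on the annotation. The order of means was the same in A20KIKO libraries, where Gsdmd reached 4.64 ± 1.24 and Casp4 1.61 ± 0.458 CPM per kilobase (SD, n = 4 each). There the neighbours from Il18 to Pycard, Gsdmc and Casp1 overlapped, as did Aim2 and Nlrp3. Gsdmd thus stayed far below Gsdma in both groups. Of the summed level of 7 tested gasdermins per kilobase, Gsdma held 83.7 ± 4.66% in A20WT and 77.2 ± 11.7% in A20KIKO mice, and Gsdmd 1.34 ± 0.467% and 2.56 ± 0.850% (SD, n = 4 each). These shares did not pass a two-sided exact permutation test (p = 0.457 and 0.0857, adjusted over 7 shares 0.633 and 0.150). Gsdma3 had the smallest p of the 7 shares, 0.0286, which is the smallest p possible here and was 0.150 adjusted. An adjusted p under 0.05 would need most of the 7 shares at that smallest p, so missing it was close to fixed by the design. Within each library Gsdmd had 13.8 ± 4.14 counts per 1000 Gsdma counts in A20WT and 29.1 ± 8.66 in A20KIKO mice (SD, n = 4 each). A20KIKO mouse 2, at 17.8, lay below A20WT mouse 2, at 19.96, and the ratio did not pass (exact permutation p = 0.0571, adjusted over 3 ratios 0.0571).

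**Figure D2:**
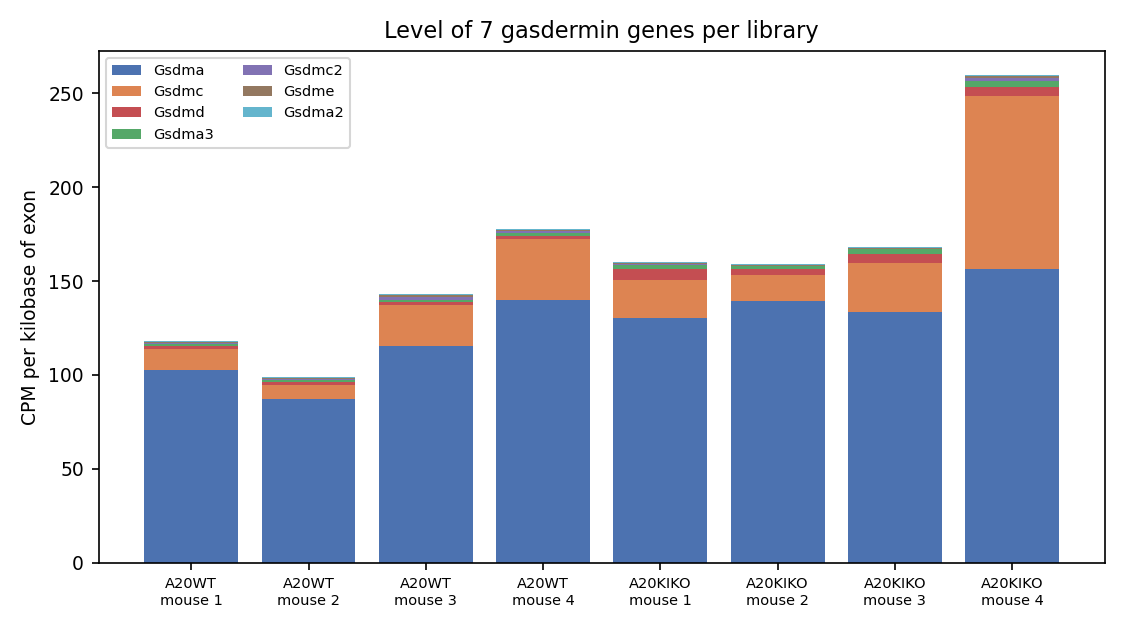
Level of the 7 tested gasdermin genes in each library, stacked, in CPM per kilobase of exon on a linear axis from 0. Gsdma fills most of each bar, Gsdmd is the thin red band above Gsdmc, and the tallest bar, A20KIKO mouse 4 at 260 CPM per kilobase, owes its height to Gsdmc.

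Il18, the cytokine that caspase-1 matures, was the member with the widest downward difference, and it did not pass. Il18 (ENSMUSG00000039217, chromosome 9, 50554827 to 50581840) had 94.5, 57.8, 77.0 and 66.1 CPM in A20WT and 64.4, 57.9, 48.2 and 40.4 CPM in A20KIKO mice. A20WT mouse 2 lay within the A20KIKO range, and the interval of the change was 0.548-fold to 0.930-fold before adjustment (log2 change -0.49, SE 0.18, edgeR adjusted p = 0.186). Of 10 other cytokines and receptors of the interleukin-1 and interleukin-18 systems, 2 rose, Il18bp and Il18r1, and 0 fell. Among all tested genes 2.43% were called higher and 1.06% lower. Il18bp, a secreted decoy that binds interleukin-18, rose from 0.403, 0.793, 0.684 and 0.823 CPM in A20WT to 5.82, 1.142, 2.74 and 8.51 CPM in A20KIKO mice (log2 change 2.76, SE 0.54, edgeR adjusted p = 0.0180). Its call was lost without any 1 of the 4 A20WT libraries (edgeR adjusted p = 0.0548 to 0.0974), with no filter (0.0753), with limma-voom (0.0765) and against a 1.5-fold change (0.0517), while the log2 change stayed between 2.27 and 3.08. Il18r1, the ligand-binding receptor chain, rose 2.25-fold from 1.45 ± 0.174 to 3.26 ± 0.477 CPM (SD, n = 4 each; edgeR adjusted p = 0.00998). That call was lost on 1 sequencing lane alone (edgeR adjusted p = 0.0785) and against a 1.5-fold change (0.122). Counts of Il18bp per 1000 Il18 counts were 9.83 ± 4.23 in A20WT and 94.4 ± 82.8 in A20KIKO mice (SD, n = 4 each), higher in 4 of 4, from 19.7 in mouse 2 to 211 in mouse 4 (two-sided exact permutation p = 0.0286, adjusted over 3 ratios 0.0429). This ratio was chosen after the values were seen, and Il18bp alone already lay apart between the groups. Its p is therefore no separate support, and the adjustment does not cover the choice. Il1b, the other cytokine that caspase-1 matures, was named after its values were seen: it had 43.3 CPM in A20KIKO mouse 4, 0.225 to 1.03 CPM in A20KIKO mice 1 to 3 and 0.324 to 2.45 CPM in A20WT mice (edgeR adjusted p = 0.486).

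**Figure D3:**
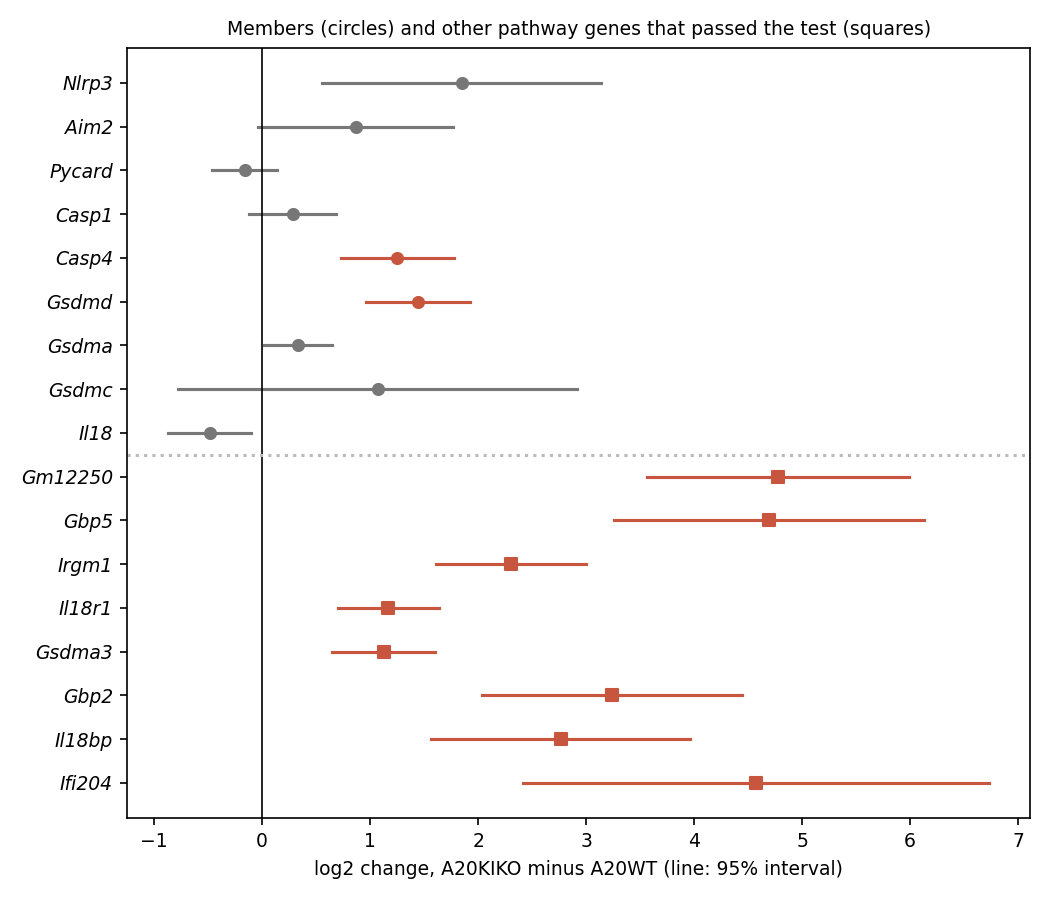
Log2 change (A20KIKO minus A20WT) with its unadjusted 95% interval for the 9 genes (circles, above the dotted line) and for the other pathway genes that passed the test (squares). Red marks an edgeR adjusted p under 0.05. Gsdmd and Casp4 are the red circles, and the squares reach a log2 change of 4.78.

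Beyond the 9, other genes of the pathway were read from lists of sensors, caspases, cytokines and receptors, regulators, gasdermin copies and the PYHIN family, 57 genes in all. Of these, 46 were tested, 8 rose and 0 fell, where 2.43% of all tested genes were called higher and 1.06% lower. The median log2 change of the 46 was 0.37, against -0.01 over all tested genes. The 8 were Gsdma3, Il18bp and Il18r1, 4 of 15 regulators and 1 of 6 tested PYHIN genes. The 4 regulators were interferon-inducible GTPases. Gbp2, Gbp5 and Irgb10 are known to act on vacuoles and bacteria and so expose ligands to caspase-11 and Aim2, while Irgm1 is a regulatory member that restrains such effectors at host membranes. Gbp2 rose from 5.30 ± 2.56 to 49.9 ± 24.4 CPM and Irgm1 from 13.6 ± 2.15 to 67.3 ± 31.1 CPM (SD, n = 4 each; edgeR adjusted p = 0.0151 and 0.00301). Gbp5, which also promotes Nlrp3 assembly, held 0 to 12 counts per A20WT library and 52 to 270 per A20KIKO library (log2 change 4.69, SE 0.66, edgeR adjusted p = 0.00216). Gm12250, listed by RefSeq as Irgb10, had 0.108 ± 0.0689 and 3.12 ± 1.63 CPM (SD, n = 4 each; edgeR adjusted p = 0.000971). Like Nlrp3, Gbp5 and Gm12250 entered the test through the group in which they were higher. Each had 1 A20WT and 4 A20KIKO libraries over 0.133 CPM. Ifi204, described below, had 3 and 4, and also needed A20KIKO libraries to enter. The part of Gbp5, Gm12250 and Ifi204 in the count of 8 is therefore no support for it. The median of the 46 counts them too, with other genes that needed A20KIKO libraries to enter. That median is therefore no support for a shift of the pathway. The call of Gbp2 was lost without A20WT mouse 1, 2 or 3 (edgeR adjusted p = 0.0602 to 0.0745). These are multigene families with similar copies, so values of single genes carry that uncertainty.

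The PYHIN family holds Aim2 and its neighbours on chromosome 1, several of which bind DNA. Ifi204 lay between 0.0922 and 0.162 CPM in A20WT mice and rose to 4.58, 0.190, 1.40 and 6.44 CPM in A20KIKO mice (log2 change 4.57, SE 0.95, edgeR adjusted p = 0.0348). In A20KIKO mouse 2 it had 11 counts, within the 8 to 12 counts of the A20WT libraries, and the groups stayed apart only by the scaling to depth. It was over 0.133 CPM in 3 A20WT libraries, so it passed the filter only with A20KIKO libraries. Its call was lost without any A20WT mouse or without A20KIKO mouse 1 or 3 (edgeR adjusted p = 0.0518 to 0.147), with no filter (0.137), with limma-voom (0.207) and against a 1.5-fold change (0.0784). Of 6 tested sensors other than Nlrp3 and Aim2, 0 passed: Nlrp10, a sensor-like protein of epidermis, had 110 ± 23.1 and 87.8 ± 18.6 CPM, and Naip2, which detects the inner rod protein of bacterial secretion systems, 0.307 ± 0.122 and 0.637 ± 0.259 CPM in A20WT and A20KIKO (SD, n = 4 each; edgeR adjusted p = 0.446 and 0.283). Of 5 other caspases 0 passed. Casp14, a caspase of cornification, had 185 ± 44.3 and 256 ± 169 CPM, and Casp8, the apical caspase of death receptors, 40.9 ± 5.15 and 53.8 ± 7.88 CPM (SD, n = 4 each; edgeR adjusted p = 0.681 and 0.171).

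**Figure D4:**
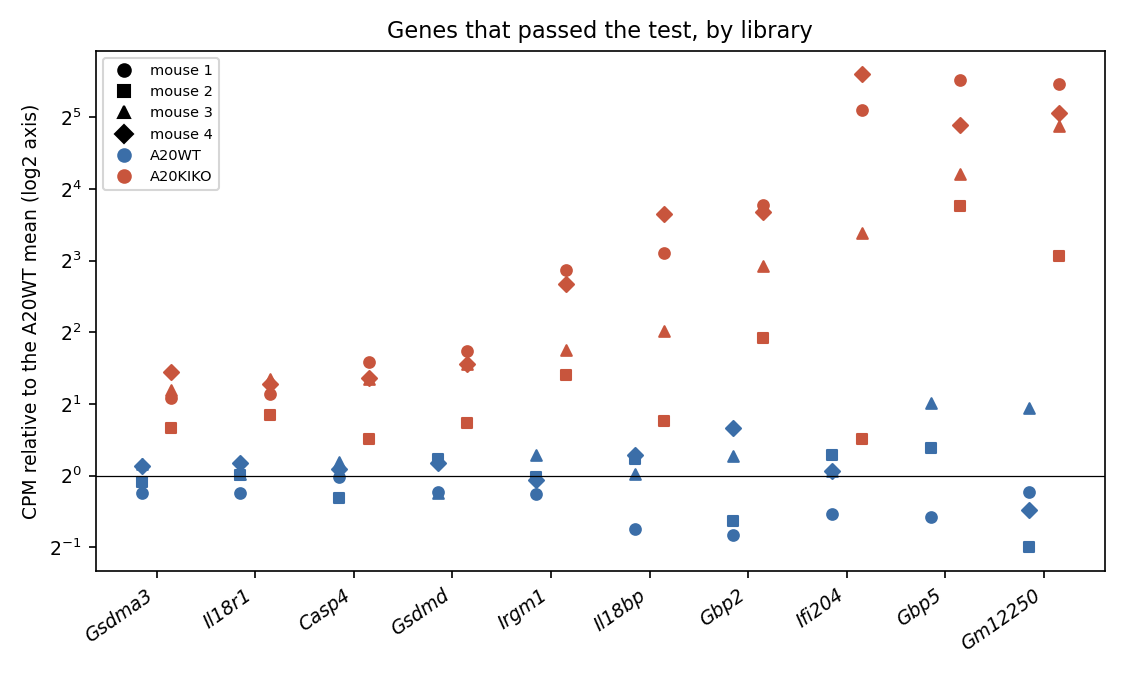
The 10 pathway genes that passed the test, 2 of the 9 and 8 others, in each library as CPM relative to the A20WT mean of the gene (log2 axis). Colours mark the groups and symbols the mouse numbers; Gbp5 in A20WT mouse 4 is at 0 and not drawn. A20KIKO mouse 2 (red squares) is the lowest A20KIKO library for each of the 10.

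In each of the 10 genes that passed, A20KIKO mouse 2 was the lowest A20KIKO library, and mouse 1 was the highest for 6 and mouse 4 for 3 of them. Passing or not, mouse 2 was lowest for 5 of the 9 genes and 32 of the 46 other tested pathway genes. It was also lowest for 7 of 10 tested monocyte and macrophage markers and 4 of 9 keratinocyte markers. The share over all called genes was not counted, so this place of mouse 2 is not shown to be particular to the pathway. Leaving out A20KIKO mouse 2 raised the other pathway genes called from 8 to 15, and leaving out A20WT mouse 1, 2 or 3 lowered them to 5. Over the 8 libraries, among the 10337 genes averaging 5 CPM or more, the centred log2 CPM profiles nearest to Casp4 were those of H2-T22, H2-T10 and Tap1, at root mean square differences of 0.17, 0.19 and 0.20. H2-T22 and H2-T10 encode non-classical MHC class I molecules, and Tap1 a subunit of the peptide transporter that loads class I. The profiles nearest to Gsdmd were those of AW011738, H2-Q6 and Fanca, at 0.11, 0.16 and 0.21. H2-Q6 is another class I gene and Fanca encodes a DNA crosslink repair protein. Much of this nearness is the group difference itself, since each of these 6 genes was called higher.

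Promoters are shown for Casp4 and its neighbour Casp1, of which only the first passed the test, and for Gsdma3 and Irgm1, which rose. All but Casp1 carry interferon-type or NF-kB-type letters. RefSeq's table (GRCm38.p6) held promoters of 6 of the 9 genes, Casp1, Casp4, Pycard, Nlrp3, Aim2 and Il18. Searched on both strands of the 250 bases before the start were GAAA, 2 bases of any kind and GAAA (the core of an interferon-stimulated response element), TTCNNNGAA (a gamma-activated site) and GGGA, 2 bases of any kind and TTCC (an NF-kB site), which 2.98%, 7.02% and 1.21% of 32851 promoters hold. None of the 6 genes held any of these 3 patterns in a promoter, against 12.3% of the 27025 genes in the table with a match in at least 1 of their promoters. The usual NF-kB consensus, which allows more letters and was added after the promoters were read, occurs in 3.9% of promoters, and 2 of the 6 genes held it, Casp4 and Nlrp3 (the latter in 1 of its 2 promoters). With this added pattern the share of all genes with any match was 15.6%. Of the 8 other genes called higher, 7 had a promoter in the table and 6 of these 7 held at least 1 pattern, Il18r1 in 1 of its 3 promoters. Il18bp, which also rose, held none and is not shown, so the promoters shown do not stand for all genes that rose. Below, written 5′ to 3′ along the gene, capitals mark the matches: in Casp4 GGGGATTTCC and GGGATTTCCC, overlapping NF-kB consensus matches 93 and 92 bases before the start; in Gsdma3 TTTCTGTTTC, 233 before it, and GGAAACTCCC, 197 before it; in Irgm1 GAAATAGAAA and GAAACCGAAA, which overlap, 30 and 24 before it.
Casp4, chr9:5308599-5308848, plus strand: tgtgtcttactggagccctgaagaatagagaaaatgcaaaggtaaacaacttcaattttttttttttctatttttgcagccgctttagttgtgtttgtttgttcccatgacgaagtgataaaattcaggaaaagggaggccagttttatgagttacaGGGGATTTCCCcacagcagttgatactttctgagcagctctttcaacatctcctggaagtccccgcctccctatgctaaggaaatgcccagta
Casp1, chr9:5298267-5298516, plus strand: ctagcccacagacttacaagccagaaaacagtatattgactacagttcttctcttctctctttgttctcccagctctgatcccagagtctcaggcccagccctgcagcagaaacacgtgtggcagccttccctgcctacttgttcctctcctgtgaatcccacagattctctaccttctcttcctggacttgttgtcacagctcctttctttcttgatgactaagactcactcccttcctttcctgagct
Gsdma3, chr11:98626099-98626348, plus strand: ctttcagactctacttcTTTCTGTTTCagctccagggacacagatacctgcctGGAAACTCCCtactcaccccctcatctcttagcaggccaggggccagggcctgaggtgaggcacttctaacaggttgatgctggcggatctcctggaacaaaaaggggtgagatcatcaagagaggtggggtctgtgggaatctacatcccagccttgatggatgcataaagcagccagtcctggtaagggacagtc
Irgm1, chr11:48871421-48871670, minus strand: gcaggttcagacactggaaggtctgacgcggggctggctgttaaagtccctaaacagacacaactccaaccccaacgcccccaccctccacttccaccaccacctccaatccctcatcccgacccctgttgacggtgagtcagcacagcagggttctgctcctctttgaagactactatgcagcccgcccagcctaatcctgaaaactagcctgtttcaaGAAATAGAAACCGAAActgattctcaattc
A match is a description of letters and not a shown binding site.

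**Figure D5:**
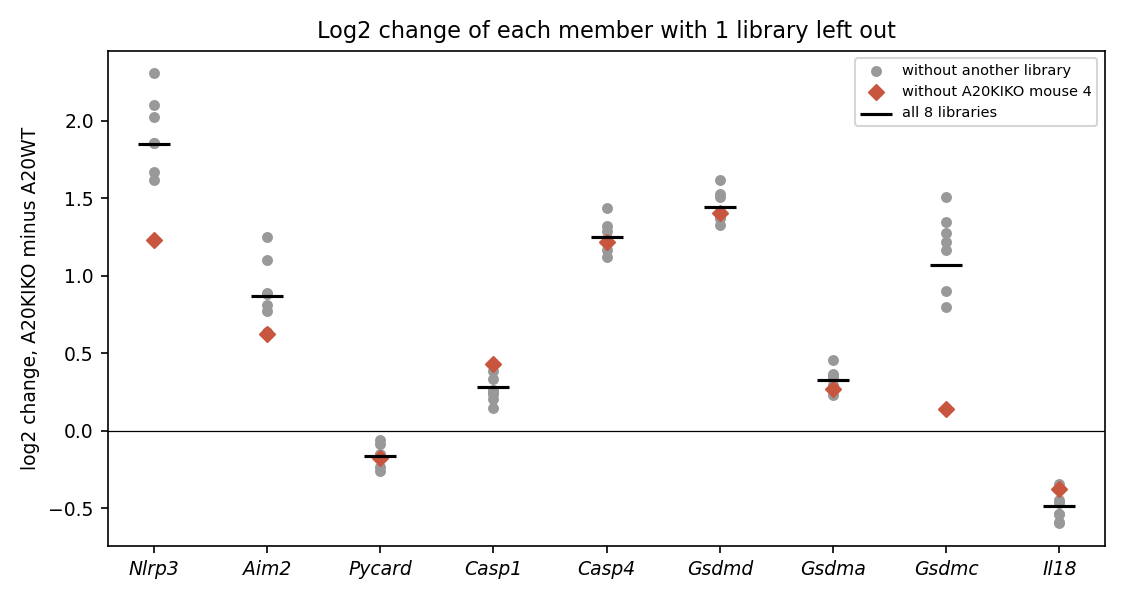
Log2 change of each of the 9 genes with all 8 libraries (bar), without A20KIKO mouse 4 (diamond) and without each other library (grey points). Gsdmd stays between 1.33 and 1.62 and Casp4 between 1.12 and 1.44, while Gsdmc goes to 0.14 without A20KIKO mouse 4.

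With 1 library left out at a time, the log2 change of each of the 9 genes kept its sign. Gsdmc had the widest span, 0.14 to 1.51, followed by Nlrp3 at 1.23 to 2.31. Pycard stayed between -0.26 and -0.06, Il18 between -0.60 and -0.35, Casp1 between 0.15 and 0.43 and Gsdma between 0.23 and 0.46.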

How the data were processed

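The authors deposited raw counts for each Ensembl gene in 2 lane columns per library, and the 2 lanes were summed. The submitters' processing notes name STAR 2.4.2a, Picard 1.139, HTSeq 0.6.1p1, GRCm38.p5 and GRCh38; their roles, the annotation release and the counting options are not given. Per the labels' protocols, libraries were made with SMART-Seq v4 and Nextera, which keep no strand and no molecular identifiers, so a count is not an independent molecule.

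Symbols matched 51633 of 51912 identifiers (GENCODE M21, GRCm38). Genes passed edgeR's filterByExpr (minimum count 10, total 15), were scaled by TMM and fitted with edgeR 4.0.16 in R 4.3.3, robust quasi-likelihood, group as the only term. SE is the absolute log2 change over the root of F, and intervals use the test's degrees of freedom without adjustment. Median log2 change, CPM per kilobase of GENCODE exon, exact permutation tests (SciPy 1.17.1), promoter matches (an NF-kB consensus was added after the promoters were read) and figures (Python 3.11.15, Matplotlib 3.10.9) followed. The fit was tested on simulated data. The members, lists and tests were chosen with earlier results of these data known. Named were the 9 genes, Gsdma and Gsdmc copies, called genes of each pathway list up to 6 (or its 2 highest), the 3 nearest profiles and marker lists. Mnda and Pyhin1 matched genes already listed under other names, and Naip7 was not matched. Alternatives were DESeq2 1.42.0, limma-voom (limma 3.58.1), other size factors, filters, thresholds, single lanes, a replicate block and leaving out each library. Libraries come from separate mice.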

Additional observations from a re-analysis of the deposited data

Results flagged for a closer look

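Gsdmc in A20KIKO mouse 4 stood far from the other 3 A20KIKO libraries, at 221 CPM against 33.7 to 61.8 CPM, by Dixon's criterion for 4 samples (gap over range 0.850, past the 95% critical value). It was the 1 such library among 34 gene and group combinations, where chance gives about 1 in 20.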

How the results depend on the processing

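The calls of Gsdmd held under each of the 20 alternatives run, and those of Casp4 under each of 19 except without A20KIKO mouse 1, against a 1.5-fold change (edgeR adjusted p = 0.108) and at an adjusted p under 0.01. The members called higher numbered 1 with a filter of 5 CPM (which Casp4 did not enter), against a 1.5-fold change and at an adjusted p under 0.01, and 1 to 2 with a library left out; the members called lower stayed at 0. All genes called, 576, became 374 with the filter of 5 CPM, 1133 with DESeq2, 200 against a 1.5-fold change, 250 at an adjusted p under 0.01 and 348 to 619 with a library left out (348 without A20KIKO mouse 1, 355 without A20WT mouse 3). Other pathway genes called higher, 8, became 2, 14, 4 and 4 under the same 4 settings and 5 to 15 with a library left out. The causes were not tested. The difference in the Gsdmc share of gasdermin RNA, 5.51 percentage points, was -0.27 without A20KIKO mouse 4 and up to 8.58 without other libraries; with 4 mice against 3 the smallest exact permutation p is 0.0571, so these say nothing of passing. Replicate numbers of the 2 groups gave no clear pairing of the libraries. Correlations of same-numbered deviations were 0.04, 0.06, -0.01 and 0.24, and those of differently numbered ones ran from -0.24 to 0.23. The highest of all was that of the mice numbered 4, so this check does not settle whether the libraries were paired. With the replicate block 551 genes and 3 members were called; Gsdmc was the third (log2 change 0.90, edgeR adjusted p = 0.0278), and Ifi204 was lost (0.0677). A gene needed 4 libraries over 0.133 CPM to be tested.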

Other observations

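Several genes of these lists were too low to test and had their counts in 1 or 2 libraries. Mefv, the sensor pyrin, had 73 counts in A20KIKO mouse 4 and at most 2 elsewhere. The PYHIN genes Ifi209 and Ifi208 had 138 and 69 counts in A20KIKO mouse 1 and 114 and 33 in A20KIKO mouse 4, against 0 to 14 and 0 to 4 in the other 6 libraries. Csf3r, the receptor of granulocyte colony-stimulating factor, had 1063 counts in A20KIKO mouse 4 and at most 16 elsewhere.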
